A study of Canis lupus familiaris with 10 samples.

Results

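Transcripts of 6 genes that store, carry or sense zinc were followed through a calcium switch in MDCK cells, which are dog kidney cells grown as an epithelial sheet. They were the metallothioneins MT1E and MT2A, the zinc exporter SLC30A1, the zinc-sensing transcription factor MTF1, and the zinc importers SLC39A10 and SLC39A14. Members were probe sets annotated to exactly one of these symbols. All 6 of 6 had a single such probe set, out of 15947 genes measured, and all 6 passed the signal filter that kept 10498 genes. The genes were chosen by their log2 signals at the steps of the switch, which were already known. Their levels and changes are therefore a description and carry no test.

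One line, labelled Mock-MDCK, served as the control, and the other overexpressed human BLT2, a receptor for the lipid 12-hydroxyheptadecatrienoic acid (12-HHT). Each line was sampled as a confluent culture in DMEM with 10% FCS (called 0 h), after 2 h and after 18 h in calcium-free SMEM, after a further 2 h in high-calcium DMEM (calcium return), and after the same return with 200 nM 12-HHT. A single GeneChip array was run for each of these 10 conditions, on a mix of RNA from 3 samples, and none was replicated. The labels do not say whether a line was 1 clone, what drove the receptor, or whether SMEM held serum. Medium and calcium changed together, so their effects cannot be told apart. Zinc was not among the measurements used here.

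Zinc is held in cells by metallothioneins, small cysteine-rich proteins that also bind copper and cadmium, and is moved by a pair of transporter families. SLC30A proteins (ZnT) take zinc out of the cytosol, across the plasma membrane in the case of SLC30A1 and into vesicles or the Golgi in the case of most others. SLC39A proteins (ZIP) bring zinc into the cytosol. When zinc is in excess, MTF1 binds it and activates the metallothionein genes and SLC30A1, and in mouse cells it lowers Slc39a10. The activity of MTF1 is set mainly by zinc binding and not by the amount of its transcript.

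Signals are log2 values as deposited. The median of all values, 7.21, served as the filter level, and array medians lay between 7.16 and 7.27. Arrays correlated with the other arrays at a mean of 0.982 to 0.987, except for 0.975 in BLT2 cells at 2 h. All 6 of 6 epithelial markers lay above 7.21 on all 10 arrays. Of 7 fibroblast, 5 endothelial and 6 leukocyte markers, 1 each passed the filter (COL1A1, VWF and CD14), and the mean signal of these lists stayed between 6.26 and 6.63, 5.97 and 6.36, and 5.78 and 6.09 over the arrays. No probe set was annotated to the BLT2 gene LTB4R2, so the transgene was not analysed here. Below, a change ± SE comes from an additive limma fit of line and step over all 10 arrays, whose error is the spread that line and step leave unexplained. Each step rests on 2 arrays, 1 per line. The gene lists tested below were also chosen with earlier results of these data known. Their p-values and counts are thus not independent of that choice.

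MT1E stood out at the first step of calcium removal. Its signal was 6.87 in Mock and 6.97 in BLT2 cells at 0 h, and 11.32 and 11.07 after 2 h without calcium. After 18 h it was 10.62 and 10.74. Both 0 h arrays lay below the filter level and all 8 others above it, so the starting level is the least certain part of the change. The change at 2 h was 4.27 ± 0.42 in log2, or 19.3-fold, with 4.45 in Mock and 4.09 in BLT2 cells. That was rank 1 of 10498 genes from the highest, where 90% of all genes lay between -0.50 and 0.47. At 18 h the change from 0 h was 3.75 ± 0.42, or 13.5-fold, and again rank 1.

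A further probe set of the metallothionein locus is annotated to both MT1E and the neighbouring LOC100686073, and so names no single gene. It was 10.61 in Mock and 11.17 in BLT2 cells at 0 h and 13.38 and 13.59 at 2 h, a gain of 2.77 and 2.42. At 18 h it was still 2.51 and 2.12 above its own 0 h value. In the dog annotation LOC100686073, MT1E and MT2A follow one another on a chromosome. Metallothionein genes are close copies, and probes of one can bind transcripts of another, so their signals are not fully separate readings.

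MT2A showed the same order of steps with a smaller change. It was 11.29 in Mock and 11.23 in BLT2 cells at 0 h and 13.00 in both lines at 2 h. At 18 h it was 12.05 and 11.63, between the earlier steps in each line. The 2 h change was 1.74 ± 0.21, or 3.34-fold, rank 19 of 10498, and the 18 h change was 0.57 ± 0.21, or 1.49-fold. The difference between 18 h and 2 h was -1.16 ± 0.21 for MT2A and -0.52 ± 0.42 for MT1E. MT4, a metallothionein of stratified epithelia, was at 3.98 to 4.59 on the 10 arrays, below the filter level on each. The other 10 names on the metallothionein list had no probe set annotated to them alone.

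SLC30A1, the exporter of the plasma membrane, followed MT2A closely. Its signal was 8.81 in Mock and 8.91 in BLT2 cells at 0 h, 10.79 and 11.26 at 2 h, and 9.86 and 10.01 at 18 h. All calcium-free arrays lay above both 0 h arrays, and the 2 h arrays above the 18 h arrays. The 2 h change was 2.17 ± 0.20, or 4.50-fold, rank 10 of 10498, and the 18 h change 1.08 ± 0.20, or 2.11-fold. Across the 5 steps the correlation of SLC30A1 with MT2A was 0.975 in Mock and 0.973 in BLT2 cells, while with MT1E it was 0.736 and 0.798. These are descriptions over 5 arrays of the same line.

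**Figure D1:**
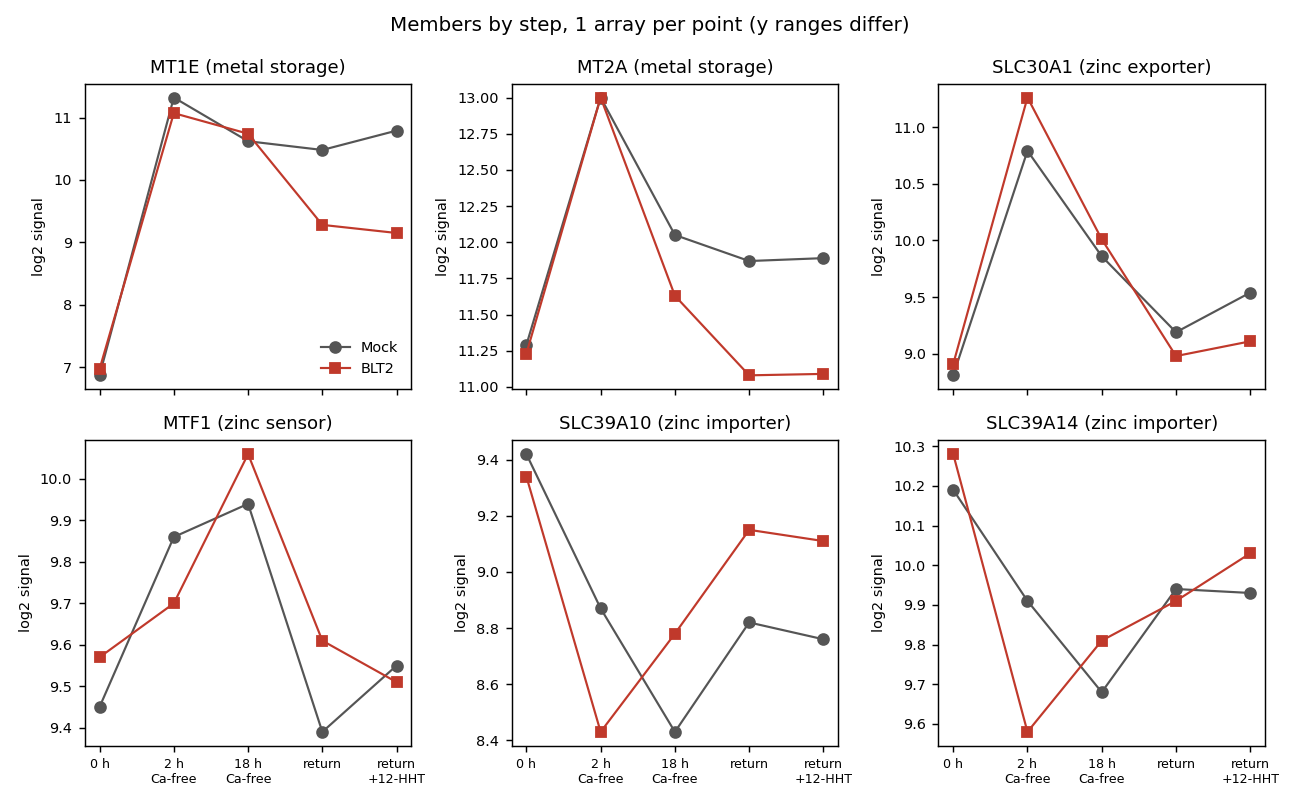
Log2 signal (y axis, with its own range in each panel) of the 6 members at the 5 steps (x axis) in Mock (grey circles) and BLT2 cells (red squares), 1 array per point. MT1E, MT2A and SLC30A1 are highest at 2 h without calcium, MTF1 at 18 h, and the importers SLC39A10 and SLC39A14 are highest at 0 h.

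MTF1 differed less between steps and peaked later. It was 9.45 in Mock and 9.57 in BLT2 cells at 0 h, 9.86 and 9.70 at 2 h, and 9.94 and 10.06 at 18 h. The change was 0.28 ± 0.12 at 2 h and 0.49 ± 0.12 at 18 h, a 1.41-fold difference. Its highest array was thus the 18 h one in each line, a step after the peak of the metallothioneins and SLC30A1. On the 10 arrays its whole range was 0.67, compared with 4.45 for MT1E.

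The importers lay on the other side of 0 h. SLC39A10, a plasma membrane importer, was 9.42 in Mock and 9.34 in BLT2 cells at 0 h, 8.87 and 8.43 at 2 h, and 8.43 and 8.78 at 18 h. SLC39A14, which carries zinc, manganese and iron, was 10.19 and 10.28 at 0 h, 9.91 and 9.58 at 2 h, and 9.68 and 9.81 at 18 h. No calcium-free array reached a 0 h array for either gene. The lowest calcium-free array was the 18 h one in Mock cells and the 2 h one in BLT2 cells, for both genes. SLC39A10 differed from 0 h by -0.74 ± 0.20 at 2 h and -0.78 ± 0.20 at 18 h (1.67-fold and 1.71-fold lower), and SLC39A14 by -0.49 ± 0.13 at both steps (1.40-fold and 1.41-fold lower). Their signals kept a correlation of 0.929 over the 10 arrays, and each was inversely related to MT1E (-0.866 for SLC39A10 and -0.837 for SLC39A14). With MT2A and SLC30A1 the inverse relation was weaker in Mock than in BLT2 cells. SLC39A10 was at -0.447 and -0.491 in Mock, and at -0.913 and -0.979 in BLT2 cells. SLC39A14 was at -0.481 and -0.546 in Mock, and at -0.783 and -0.869 in BLT2 cells. All these are descriptions over arrays that share lines and steps.

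At 2 h, then, 4 of 6 members had both arrays above both 0 h arrays, as had 18.8% of all genes, and the 2 importers had both below, as had 27.3%. The same split of 4 and 2 was found at 18 h, where the shares of all genes were 35.2% and 32.0%. Since the choice of members used these contrasts, nothing is read from the counts.

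**Figure D2:**
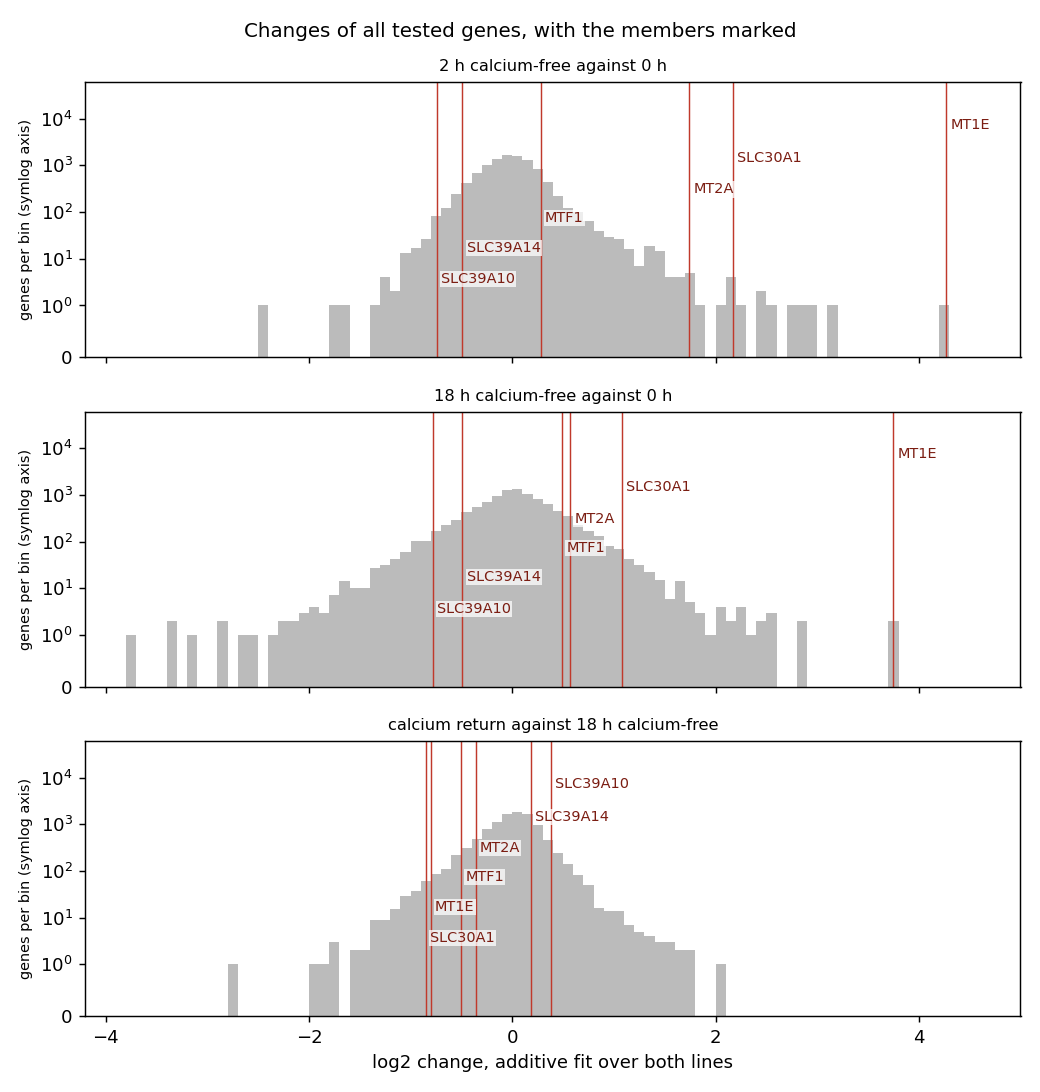
Number of genes (y axis, symmetric log scale) per 0.1 of log2 change (x axis) for all 10498 tested genes in 3 comparisons, with the additive-fit change of each member marked in red. At 2 h MT1E, SLC30A1 and MT2A lie in the upper tail at 4.27, 2.17 and 1.74, and on calcium return MT1E and SLC30A1 lie on the lower side at -0.80 and -0.85.

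Of 9 further zinc exporter genes (SLC30A), all with a probe set, 4 passed the signal filter. SLC30A4, below the filter level on all 10 arrays, was higher at 2 h by 1.11 ± 0.15 in the fit without the filter (limma adjusted p = 0.0145). At 2 h 0 of the 4 above the filter passed the test (limma, 1 at an unadjusted p under 0.05), with a median change of -0.13 against -0.02 for all genes, while 4.62% of all genes were called (57.1% of them higher, or 67.6% with median centring). SLC30A7, which loads the Golgi, was at 0.00 ± 0.09 (limma adjusted p = 0.983). SLC30A5 and SLC30A6, which act together in the secretory pathway, were at -0.17 ± 0.11 and -0.09 ± 0.09, and SLC30A9 at -0.44 ± 0.13 (adjusted p = 0.0906 in limma).

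At 18 h SLC30A7 and SLC30A6 were higher than at 0 h, and SLC30A5 did not pass (0.24 ± 0.11, limma adjusted p = 0.151). SLC30A7 was 10.22 in Mock and 10.34 in BLT2 cells at 0 h, 10.22 and 10.35 at 2 h, and 11.11 and 11.26 at 18 h. Its 18 h arrays lay above all earlier arrays of both lines. It rose by 0.90 ± 0.09, or 1.87-fold (limma adjusted p = 0.00166), with 0.90 in Mock and 0.91 in BLT2 cells, and stayed called in each of the 10 fits that left out 1 array. SLC30A6 rose by 0.34 ± 0.09 (limma adjusted p = 0.0348), a call held in only 2 of those 10 fits, those lacking a 2 h array of either line, with adjusted p up to 0.227 in the others. It was also lost without the signal filter (0.0729), with median centring (0.0573) and without the 12-HHT arrays (0.0547). In all 2 of 4 tested exporters were higher and 0 lower, against 15.0% and 12.2% of all genes, with a median of 0.29 against 0.02. SLC30A4 is not among these 4. In the fit without the filter it was higher at 18 h by 1.43 ± 0.15 (limma adjusted p = 0.00215).

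Compared with 2 h, SLC30A7 was 0.90 ± 0.09 higher at 18 h (limma adjusted p = 0.00382), SLC30A6 0.43 ± 0.09 (adjusted p = 0.0200) and SLC30A5 0.41 ± 0.11 (adjusted p = 0.0379), while SLC30A1 stood at -1.09 ± 0.20. All 3 calls were lost without the BLT2 18 h array. SLC30A6 was lost also when the 18 h array of Mock or the 2 h array of BLT2 cells was left out, and SLC30A5 was kept only without a calcium return array of either line, with adjusted p of up to 0.0540 for SLC30A7, 0.149 for SLC30A6 and 0.294 for SLC30A5. SLC30A5 was lost too without the filter (0.0675), with quantile normalization (0.0546) and without the 12-HHT arrays (0.0615). Of all genes, 14.3% were higher and 8.33% lower in this comparison.

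**Figure D3:**
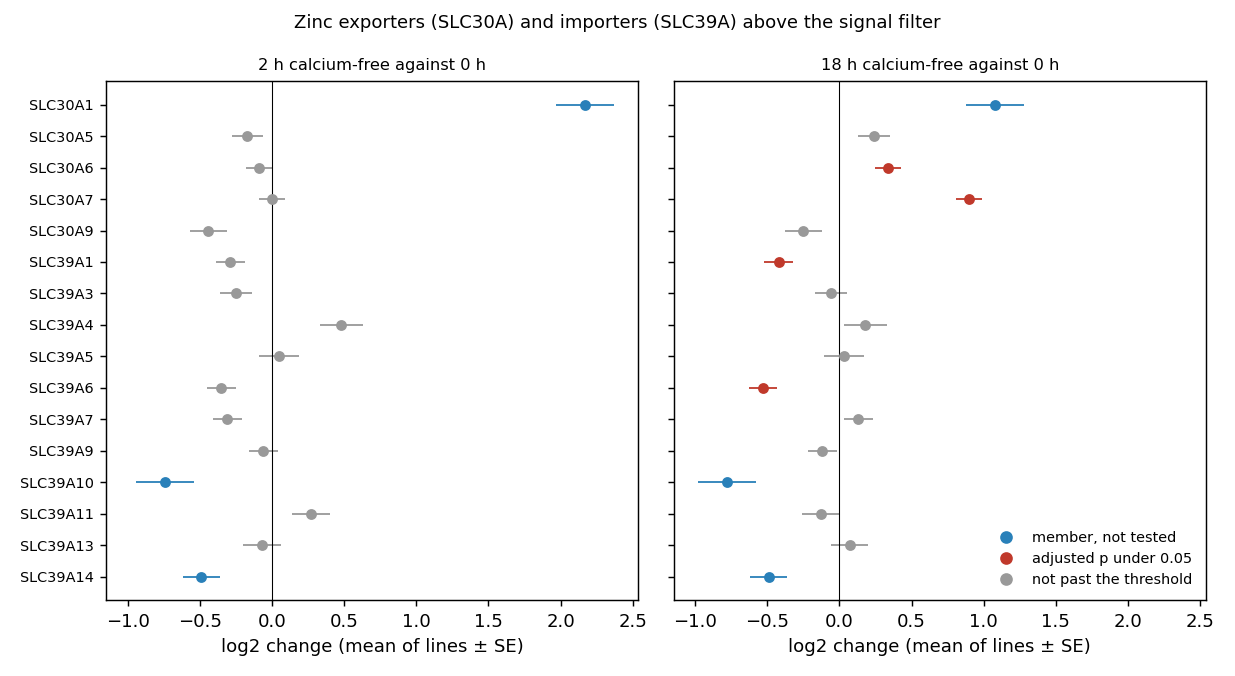
Log2 change from 0 h (x axis, mean of the lines ± SE of the additive fit) of each zinc exporter and importer above the signal filter (y axis) at 2 h and 18 h without calcium. SLC30A1 is the highest point at both steps (2.17 and 1.08), SLC30A7 is at 0.00 and then 0.90, and SLC39A10 is the lowest point at both (-0.74 and -0.78).

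Among the importers, 9 of 12 genes outside the members passed the filter. At 2 h 0 of 9 passed the test (limma, 4 at an unadjusted p under 0.05), with a median of -0.07. Their changes ran from -0.35 ± 0.10 for SLC39A6 (limma adjusted p = 0.0922) to 0.48 ± 0.15 for SLC39A4, the importer of dietary zinc (adjusted p = 0.115). At 18 h 2 of 9 were lower and 0 higher, beside 12.2% and 15.0% of all genes. These were SLC39A6, a close relative and partner of SLC39A10, and the plasma membrane importer SLC39A1.

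SLC39A6 was 11.40 in Mock and 11.34 in BLT2 cells at 0 h, 11.11 and 10.94 at 2 h, and 10.89 and 10.79 at 18 h. It fell by 0.53 ± 0.10 at 18 h (limma adjusted p = 0.00959), and SLC39A1 fell by 0.42 ± 0.10 (limma adjusted p = 0.0233). Both calls were lost without any 1 of the 0 h or 18 h arrays, with adjusted p of up to 0.0933 and 0.179, and that of SLC39A1 also with median centring (0.0544). SLC39A7, which releases zinc from the endoplasmic reticulum and Golgi, rose by 0.43 ± 0.10 between 2 h and 18 h (limma adjusted p = 0.0213), the 1 importer of 9 called there. That call was lost without either 18 h array or the BLT2 2 h array (up to 0.186). The other importers at 18 h, SLC39A3, SLC39A4, SLC39A5, SLC39A9, SLC39A11, SLC39A13 and again SLC39A7, lay between -0.13 and 0.18 from 0 h.

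Genes tied to MTF1 in mouse studies were a mixed group, with 7 tested apart from MTF1 itself. At 2 h 1 of 7 was higher, CSRP1, a zinc-binding LIM domain protein, by 0.77 ± 0.09 (limma adjusted p = 0.00804), beside 2.64% of all genes. At 18 h 1 of 7 was higher and 2 of 7 were lower, beside 15.0% and 12.2% of all genes. CSRP1 was higher by 1.01 ± 0.09, or 2.02-fold (adjusted p = 0.00151 in limma). The lower genes were the selenoprotein genes SELENOH at -0.99 ± 0.13 (limma adjusted p = 0.00279) and SELENOW at -0.50 ± 0.10 (limma adjusted p = 0.0128). CSRP1 and SELENOH kept the 18 h call without each array in turn. The 2 h call of CSRP1 was lost when either 0 h array or the 2 h array of BLT2 cells was left out (up to 0.0816), and that of SELENOW without any 1 of the 0 h or 18 h arrays (up to 0.109). GCLC, the catalytic subunit of glutathione synthesis, NDRG1, PGF and SELENOP did not pass at either step. For SELENOP the lines differed, with -0.04 in Mock and 2.33 in BLT2 cells at 2 h, and -2.25 and -0.28 at 18 h. Its SE was 0.75, and some of its signals lay below the filter level (5.91 in BLT2 cells at 0 h). The lack of a call for SELENOP therefore does not mean that it was unchanged. CSRP1 was 10.49 in Mock and 10.74 in BLT2 cells at 0 h, 11.29 and 11.48 at 2 h, and 11.51 and 11.75 at 18 h, higher at 18 h than at 2 h in each line, whereas MT1E, MT2A and SLC30A1 were lower.

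After calcium return the members differed by gene and by line. SLC30A1 went to 9.19 in Mock and 8.98 in BLT2 cells, a change of -0.85 ± 0.20 from 18 h, and ended 0.39 and 0.08 above its own 0 h values. MTF1 went to 9.39 and 9.61, a change of -0.50 ± 0.12, and was then within 0.05 of 0 h in each line. The importers lay higher than at 18 h, SLC39A10 to 8.82 and 9.15 (0.38 ± 0.20) and SLC39A14 to 9.94 and 9.91 (0.18 ± 0.13). Neither importer was back at 0 h, with -0.40 ± 0.20 and -0.31 ± 0.13 left over both lines.

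MT1E stayed at 10.48 in Mock but was 9.28 in BLT2 cells after the return. The change from 18 h was -0.14 in Mock and -1.45 in BLT2 cells, 2.74-fold lower in the latter. MT2A followed the same order with 11.87 and 11.08, at -0.18 and -0.55 from 18 h. Against 0 h, MT1E was still 3.60 higher in Mock (12.2-fold) and 2.31 higher in BLT2 cells (4.96-fold), and with 2.96 ± 0.42 over both lines it was again rank 1 of 10498 genes. MT2A was 0.58 above its 0 h value in Mock and -0.15 from it in BLT2 cells. The probe set shared with LOC100686073 was 2.60 above 0 h in Mock and 1.48 in BLT2 cells.

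Against 18 h, 3 of 6 members had both return arrays below both 18 h arrays (22.5% of all genes), 2 had both above (20.9%), and MT2A overlapped. Of 4 other exporters and 9 other importers tested, 0 passed for the return (limma, 1 of each list at an unadjusted p under 0.05), while 3.34% of all genes were called. Averaged over the lines, the changes of these importers ran from 0.08 to 0.29, with a median of 0.17 against 0.02 for all genes. They were not uniform within a line. SLC39A5 was at 0.27 in Mock and -0.11 in BLT2 cells, and SLC39A13 at 0.00 and 0.34. The median of the exporters was -0.15. SLC30A4, below the filter level, was at -0.86 ± 0.15 in the fit without the filter (limma adjusted p = 0.0381). Compared with 0 h, SLC30A7 was still higher after the return by 0.74 ± 0.09 (limma adjusted p = 0.00569), at 10.95 in Mock and 11.10 in BLT2 cells, where 7.75% of all genes were higher. That call was lost without the BLT2 0 h array (0.0649).

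Among the 6 members, the lines differed most in the metallothioneins after calcium return. BLT2 minus Mock for MT1E was 0.10 at 0 h, -0.25 at 2 h, 0.12 at 18 h, -1.19 after the return and -1.64 after the return with 12-HHT. For MT2A the differences were -0.07, -0.01, -0.42, -0.79 and -0.80. At the return, 90% of all genes lay between -0.52 and 0.76, and with 12-HHT between -0.59 and 0.73, so both metallothioneins were outside that range at both. The change on return in BLT2 minus that in Mock cells was -1.31 for MT1E, where 90% of genes lay between -0.45 and 0.70. For MT2A it was -0.37 and for SLC30A1 -0.36, both inside that range. The MT2A difference of -0.42 at 18 h, before the return, was already outside the range of -0.38 to 0.38 for 90% of genes there. Each of these values compares single arrays, and the difference was not tested.

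**Figure D4:**
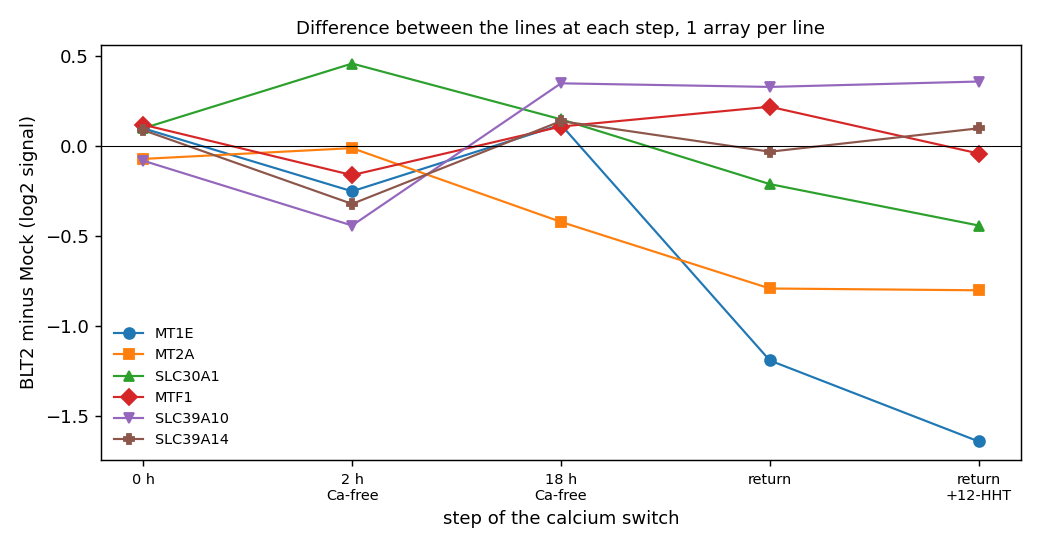
BLT2 minus Mock log2 signal (y axis) for the 6 members at the 5 steps (x axis), 1 array per line. MT1E and MT2A lie near the zero line at 0 h and reach -1.64 and -0.80 after calcium return with 12-HHT. SLC39A10 lies at 0.33 to 0.36 from 18 h onward, inside the range that held 90% of all genes.

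SLC30A1 also crossed over, with BLT2 minus Mock at 0.46 at 2 h, -0.21 after the return and -0.44 with 12-HHT. SLC39A10 went the opposite way, at -0.44 at 2 h and 0.35, 0.33 and 0.36 at the later steps. All these values of SLC30A1 and SLC39A10 lay inside the range that held 90% of all genes. That range was -0.65 to 0.54 at 2 h, -0.38 to 0.38 at 18 h, and as given above for the return steps. SLC39A14 and MTF1 stayed between -0.32 and 0.22 at all 5 steps. Averaged over the steps, BLT2 minus Mock was -0.57 ± 0.27 for MT1E, -0.42 ± 0.14 for MT2A, 0.01 ± 0.13 for SLC30A1 and 0.10 ± 0.13 for SLC39A10. Of the other transporters, 0 of 4 exporters and 0 of 9 importers passed for the line difference (limma, 1 of each list at an unadjusted p under 0.05), against 15.9% of all genes (7.82% higher and 8.13% lower in BLT2 cells).

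With 12-HHT the members differed little from calcium return alone. In Mock cells MT1E went from 10.48 to 10.79 and SLC30A1 from 9.19 to 9.54, differences of 0.32 and 0.35. In BLT2 cells MT1E went from 9.28 to 9.15 and SLC30A1 from 8.98 to 9.11, at -0.14 and 0.12. The 0.32 and 0.35 were seen in the line without the added receptor and lay above the range of -0.21 to 0.23 that held 90% of genes in Mock cells. MT2A differed by 0.02 and 0.01, SLC39A10 by -0.07 and -0.04, SLC39A14 by -0.02 and 0.12, and MTF1 by 0.16 and -0.10, in Mock and BLT2 cells. None of the 6 members reached a 2-fold difference in either line, as did 0% of all genes in Mock and 0.0572% in BLT2 cells. Over both lines 0 of 10498 genes passed in limma, with 29 at an unadjusted p under 0.05. That fit averages the lines, takes its error from all steps, and counts a response found in BLT2 cells alone as error. It therefore cannot decide whether 12-HHT acted in BLT2 cells only.

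Genes for copper and iron share some carriers and binding proteins with zinc. At 2 h 0 of 9 copper genes and 0 of 13 iron genes passed (limma, 1 of each list at an unadjusted p under 0.05), where 4.62% of all genes were called. At 18 h the copper-exporting ATPase ATP7A was higher by 0.43 ± 0.12 (limma adjusted p = 0.0388), 1 of 9, and 1 of 13 iron genes was higher and 3 lower, beside 15.0% higher and 12.2% lower among all genes. Of these HEPH, a copper-dependent ferroxidase, had the largest change at -1.04 ± 0.21 (adjusted p = 0.0118 in limma). The call of ATP7A was held in 4 of 10 fits without 1 array, those without an array of 2 h or of calcium return alone, with adjusted p up to 0.236. It was lost without the filter (0.0652), with median centring (0.0601) and without the 12-HHT arrays (0.0594). The call of HEPH was lost when the 0 h array of Mock or the 18 h array of BLT2 cells was left out (up to 0.108). In the metal and thiol stress list, SLC7A11, which imports cystine, was the 1 of 13 genes higher at 2 h, by 1.79 ± 0.15 (limma adjusted p = 0.00184), beside 2.64% of all genes. At 18 h SLC7A11 was again the 1 higher, by 0.70 ± 0.15 (limma adjusted p = 0.0129). That call was lost without either 18 h array or the 0 h array of BLT2 cells. The change lay between 0.55 and 0.86 when 1 array was left out. Of the 13 genes, 2 were lower at 18 h. The lower genes were HSPH1 at -1.64 ± 0.18 (limma adjusted p = 0.00213) and GCLM at -0.93 ± 0.11 (limma adjusted p = 0.0024). HMOX1, heme oxygenase, which cadmium and other metals induce, was 7.70 in Mock and 7.90 in BLT2 cells at 0 h, 7.38 and 7.75 at 2 h, 7.58 and 7.71 at 18 h, and 8.79 and 8.88 after calcium return. It rose on the return by 1.19 ± 0.13 from 18 h (limma adjusted p = 0.0110), a call lost without either 18 h array or the return array of Mock cells (up to 0.158), and stood 1.03 ± 0.13 above 0 h (adjusted p = 0.00586 in limma), lost without the 0 h array of BLT2 cells (0.0643).

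Genes whose signals ran most like each member over the 10 arrays were sought among 2924 genes with an SD of at least 0.3. For MT1E the nearest was BTG2, an antiproliferative gene induced by p53, with a Pearson r of 0.967, then RAB39B (0.935), DDIT4 (0.932), H1-10 and NUPR1 (both 0.930). MT2A and SLC30A1 had 3 of their 5 nearest genes in common, namely SMCO1 (0.980 and 0.950), DDB2 (0.967 and 0.946) and IL22RA1 (0.957 and 0.941). The nearest to SLC30A1 was IRS2, an adaptor of insulin signalling, at 0.976. SLC39A10 was nearest to SNX14 (0.958) and SLC39A14 to WDR77 (0.965), and TLCD1 was among the 5 nearest of both (0.957 and 0.956). MTF1 was nearest to TNKS, which encodes tankyrase, at 0.961. These correlations are over arrays that share lines and steps and are given as a description.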

How the data were processed

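The authors deposited log2 signals (the lowest is 1.55). GCRMA and Affymetrix Expression Console are named in the submitters' processing notes, with versions not given in the sources used here. The authors mixed RNA of 3 samples per array, per the labels. Of 32391 probe sets, 16545 had 1 symbol in the platform annotation (which can be old), 370 several and 15476 none. For the 516 genes with several probe sets, the highest mean was used. Genes were kept if 2 or more arrays lay above 7.21, the overall median. If the arrays were scaled together, as GCRMA usually does, a shift common to all genes of an array cannot be seen, and low signals say little of change.

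The fit was limma 3.58.1 (R 4.3.3), additive in line and step over 10 arrays, with 4 residual degrees of freedom and a prior of 3.46. P-values were adjusted by Benjamini-Hochberg over 10498 genes in each of 7 comparisons at 0.05. They measure only the spread that line and step leave unexplained. The members and the lists were chosen with earlier results of these data known. Members are named whatever their value, as are the listed zinc genes and those linked to MTF1. Other lists give up to 5 called genes a direction, and each member its 5 most correlated genes. Only part of these is printed. On simulated 2 h data, the fit called 76% of 100 genes given a change of ±1, 94% of 100 given ±2, and 17 of 10298 given none. The false calls were thus a larger share of all calls than the 0.05 aimed at. The simulated noise was independent between arrays and genes, and no step effect but the planted one was included, unlike the real data. Alternatives were no or a stricter filter (9.03, 6362 genes), median centring, quantile normalization, the mean of probe sets, an eBayes trend, no 12-HHT arrays, and leaving out each array. There were 0 columns without a sample. Gene order came from RefSeq (UU_Cfam_GSD_1.0), whose coordinates are not printed.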

Additional observations from a re-analysis of the deposited data

Results flagged for a closer look

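Several members moved in opposite directions in Mock and BLT2 cells, which is what marked them here. Each value compares single arrays, and the differences were not tested. From 2 h to 18 h without calcium SLC39A10 differed by -0.43 in Mock and 0.35 in BLT2 cells, a gap (BLT2 minus Mock) of 0.79, and SLC39A14 by -0.23 and 0.23, a gap of 0.46. From 0 h to calcium return MT2A stood at 0.58 and -0.15, a gap of -0.73, and MTF1 at -0.05 and 0.05, a gap of 0.10. With 12-HHT against the return alone, MT1E stood at 0.32 and -0.14, a gap of -0.45, MTF1 at 0.16 and -0.10, a gap of -0.26, and SLC39A14 at -0.02 and 0.12, a gap of 0.13. A gap is a difference of differences, so it varies more than the spread the additive fit left for a single array. That spread was 0.42 for MT1E, 0.21 for MT2A, 0.12 for MTF1, 0.20 for SLC39A10 and 0.13 for SLC39A14. The gaps of MTF1 on return and of SLC39A14 with 12-HHT are no larger even than that spread, and the MT1E gap is close to it. No gap is read as lying beyond such variation.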

How the results depend on the processing

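The values of the members have no test. Of 288 values recomputed under settings other than leaving out an array, 288 stayed within the spread the additive fit left for the gene. Of 420 values with 1 array left out, 44 moved beyond it, and a step that lost an array then rests on the other line. The sign changed in 21 of all 708. These ranges for 18 h against 2 h were -0.95 to -0.08 (MT1E), -1.42 to -0.91 (MT2A), -1.37 to -0.81 (SLC30A1), 0.09 to 0.35 (MTF1), -0.38 to 0.30 (SLC39A10) and -0.20 to 0.20 (SLC39A14). For 2 h against 0 h they were 1.48 to 1.99 (MT2A), 1.89 to 2.45 (SLC30A1), 0.14 to 0.41 (MTF1), -1.08 to -0.40 (SLC39A10) and -0.69 to -0.29 (SLC39A14), and for 18 h against 0 h 3.32 to 4.19 (MT1E) and 0.35 to 0.79 (MT2A). For calcium return they were -1.23 to -0.36 (MT1E) and -0.60 to -0.13 (MT2A) against 18 h, and -0.02 to 0.45 (MT2A) against 0 h. For 12-HHT they were -0.58 to 0.76 (MT1E), -0.23 to 0.25 (MT2A) and -0.05 to 0.51 (SLC30A1).

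All genes called without 1 array numbered 34 to 1024 at 2 h (485 with all arrays), 591 to 3148 at 18 h (2860), 37 to 2279 for 18 h against 2 h (2381), 2 to 375 for calcium return against 18 h (351), 40 to 1848 for return against 0 h (1579) and 575 to 1116 for the lines (1674). Listed genes outside the members numbered 1 to 5 (2), 5 to 15 (15), 0 to 12 (13), 0 to 3 (2) and 0 to 10 (7) in the first 5 of these. Without a filter 309 genes were called at 2 h and 230 on return, with median centring 312 at 2 h, and without the 12-HHT arrays 298 at 2 h, 228 on return and 575 for the lines. The listed genes called on return were 5 with quantile normalization, 4 with an eBayes trend, and 1 with median centring or without the 12-HHT arrays. No listed gene that was called changed sign in 757 refits. The causes were not tested. The additive fit already compares steps within each line, and no replicate numbers were given for a further block. The number of arrays limits the precision.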

Other observations

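SLC30A4, an exporter that fills endosomes and lysosomes, was left out by the signal filter, since its 10 signals lay between 5.15 and 6.71, all below 7.21. It was 5.37 in Mock and 5.15 in BLT2 cells at 0 h, 6.17 and 6.58 at 2 h, 6.68 and 6.71 at 18 h, 5.76 and 5.90 after calcium return, and 6.23 and 6.18 with 12-HHT. Fitted without the filter, it was higher by 1.11 ± 0.15 at 2 h (limma adjusted p = 0.0145) and by 1.43 ± 0.15 at 18 h (adjusted p = 0.00215), and lower by 0.86 on the log2 scale on return (a change of -0.86 ± 0.15, adjusted p = 0.0381). Both lines moved in the same direction at these steps. At 2 h the rise was larger in BLT2 cells (5.15 to 6.58) than in Mock cells (5.37 to 6.17). Of the other 8 listed zinc genes below the filter, none passed at these steps in that fit, with the lowest adjusted p at 0.0714 for MT4 at 18 h.

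Averaged over the steps, 4 of 13 iron genes differed between the lines. The steps serve as the repeats here, so these p-values measure only how steady a difference was across steps. Effects of the receptor cannot be told apart from other differences between the lines. CYBRD1, a ferric reductase of the plasma membrane, was 1.39 ± 0.13 higher in BLT2 than in Mock cells (limma adjusted p = 0.00154), with 8.98 in Mock and 9.96 in BLT2 cells at 0 h, and 8.99 and 10.78 after calcium return. SLC40A1, the iron exporter ferroportin, was 0.69 ± 0.12 higher (adjusted p = 0.0106 in limma). Both stayed called without each array in turn. In all 3 of 13 iron genes were higher and 1 lower, against 7.82% and 8.13% of all genes. The calls of SLC11A2 (0.37 ± 0.09) and IREB2 (-0.30 ± 0.07) were lost in 8 and 6 of the 10 fits without 1 array (limma adjusted p up to 0.0851 and 0.0746), and without the 12-HHT arrays (0.0833 and 0.0737).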
